A study of Mus musculus with 2 samples.

Results

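Clustered distal open regions are stretches of accessible chromatin away from gene starts that stand close together along the chromosome. They were chosen by a rule on the peaks of 2 DNase-seq libraries. Peaks of both libraries that overlapped by at least 1 bp were joined into shared regions, and autosomal shared regions over 500 bp from all starts of genes for proteins or long noncoding RNAs (lncRNAs) were taken as distal. Distal regions separated by gaps of at most 5 kb were then linked into chains, and the regions in chains of 4 or more were kept. This gave 366 regions in 78 chains. They were 1.71% of the 21426 autosomal distal regions, which in turn came from 37119 shared regions. The other 21060 autosomal distal regions, alone or in chains of 2 or 3, are what they are compared with. In DNase-seq, open chromatin is found where the enzyme DNase I cuts. Tissue from female B6CASTF1/J mice, a cross of C57BL/6 and CAST mice, was taken at 25 days of age and labelled as a layer of hippocampus, with no treatment and no second genotype. The libraries are biological replicates 1 and 2 of this 1 group, and both carry the same donor entry, so whether they came from separate animals is not stated and their spread may be technical. With 2 libraries an exact two-sided sign permutation test cannot give a p below 0.5, so no test was made, and every comparison below describes these libraries.

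Neighbouring open regions are a known feature of mammalian genomes. Several enhancers of 1 gene can stand in a row, genes with long CpG-rich promoters can carry open flanks, and families of small genes can lie side by side. Transfer RNA (tRNA) genes are such small genes. They are read by RNA polymerase III, whose factor TFIIIC binds the A box and the B box inside the gene, while TFIIIB sits just before its start. CTCF, a zinc finger protein that marks the borders of chromatin loops, binds open sites in most tissues. Because tRNA genes are neither protein-coding nor lncRNA genes, open tRNA genes pass the rule as distal regions.

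The label of the tissue was set beside open promoters. The gene lists were written with earlier results of these data known, so they are no independent check of it. Of the matched pan-neuronal genes 17 of 19 had a shared region within 500 bp of a start, as had 14 of 20 genes of excitatory hippocampal neurons and 11 of 19 genes of dentate granule cells. Genes of the CA1, CA2 and CA3 fields had one in 9 of 19 cases, astrocyte genes in 9 of 24, oligodendrocyte precursor genes in 6 of 15 and interneuron genes in 6 of 23. None of 24 hepatocyte genes had one, and 1 of 22 genes of endothelial cells and pericytes, 3 of 21 microglia genes and 3 of 21 oligodendrocyte genes had one. Over all autosomal protein-coding genes the share was 55.2%, so the CA field genes (47.4%) lay below it and the granule cell genes (57.9%) just above. Astrocyte (37.5%), precursor (40%) and interneuron genes (26.1%) also lay below it. Lists of no single cell type had high shares too, with 23 of 24 each for circadian clock and signalling feedback genes.

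The sequences below show what the clustered regions hold. Each is the forward strand of the 200 bp around the centre of the strongest region, by its mean signal rank in both libraries, of 1 of the largest chains, read from RefSeq's copy of GRCm38.p6, the build also called mm10. They show 3 regions at tRNA genes, 1 with a CTCF motif and 3 with other short motifs. In the first 3, capitals mark the tRNA gene, which is an arginine gene on the reverse strand near Hist1h4h, a tryptophan gene near Ctc1 and a methionine gene near Trim27. In the other 4, capitals mark motif matches, which are CTCF near Calcoco1, the octamer ATGCAAAT of POU factors near Tmem161b, the E-box CAGCTG near Msl1, and GGGCGGGG or GGGTGGGG of KLF and SP factors with the E-box CAGCTG in Apba2.
Histone gene chain (Hist1h4h), chr13:23526451-23526650: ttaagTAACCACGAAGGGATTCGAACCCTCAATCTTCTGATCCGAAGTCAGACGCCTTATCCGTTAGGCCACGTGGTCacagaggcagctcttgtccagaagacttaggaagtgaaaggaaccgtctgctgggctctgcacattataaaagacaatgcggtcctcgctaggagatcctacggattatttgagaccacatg
Ctc1 chain, chr11:69041701-69041900: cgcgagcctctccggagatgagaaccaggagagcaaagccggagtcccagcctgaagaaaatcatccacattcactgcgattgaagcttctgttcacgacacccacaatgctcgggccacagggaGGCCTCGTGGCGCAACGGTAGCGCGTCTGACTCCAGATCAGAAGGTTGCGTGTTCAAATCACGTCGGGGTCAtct
Trim27 chain, chr13:21167541-21167740: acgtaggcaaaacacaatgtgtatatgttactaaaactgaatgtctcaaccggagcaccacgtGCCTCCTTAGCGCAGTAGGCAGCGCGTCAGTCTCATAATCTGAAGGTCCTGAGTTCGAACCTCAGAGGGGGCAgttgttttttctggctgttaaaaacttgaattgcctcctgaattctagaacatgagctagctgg
Calcoco1 chain, chr15:102742691-102742890: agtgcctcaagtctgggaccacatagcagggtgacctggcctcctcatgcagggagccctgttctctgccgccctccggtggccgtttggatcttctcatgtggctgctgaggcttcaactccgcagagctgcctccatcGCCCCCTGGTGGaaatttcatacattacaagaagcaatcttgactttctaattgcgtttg
Tmem161b chain, chr13:84348001-84348200: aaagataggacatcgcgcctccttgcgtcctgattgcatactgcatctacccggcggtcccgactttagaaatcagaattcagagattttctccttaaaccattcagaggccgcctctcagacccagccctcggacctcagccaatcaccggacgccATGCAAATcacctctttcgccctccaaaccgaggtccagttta
Msl1 chain, chr11:98786961-98787160: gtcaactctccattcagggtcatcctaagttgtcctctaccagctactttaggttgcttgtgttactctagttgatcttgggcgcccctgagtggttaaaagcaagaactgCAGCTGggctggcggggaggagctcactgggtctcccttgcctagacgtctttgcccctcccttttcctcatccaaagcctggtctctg
Apba2 chain, chr7:64505011-64505210: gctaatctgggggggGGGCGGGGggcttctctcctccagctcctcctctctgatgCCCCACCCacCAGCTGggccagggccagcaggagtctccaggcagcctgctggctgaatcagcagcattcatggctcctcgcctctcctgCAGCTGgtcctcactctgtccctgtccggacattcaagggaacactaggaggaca

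Most chains were short. Of the 78 chains 48 held 4 regions, 17 held 5, 7 held 6, 4 held 7, 1 held 9 and 1 held 10. Together they spanned 0.497 Mb, of which the regions covered 102.61 kb or 20.6%, and single spans lay between 1340 and 17302 bp. The median gap between neighbours in a chain was 736 bp. Of the 288 gaps 31 were shorter than 100 bp, 7 were counted as 0 bp and 58 were longer than 2500 bp. At the gaps of 0 bp, neighbouring regions touched or, in the Tank, Tchh and Mex3b chains, overlapped while counted as separate regions. The Tank and Mex3b chains held 4 regions each, so with overlapping regions joined they would fall outside the rule. Chains stood on all 19 autosomes, with 9 on chromosome 13, 7 each on chromosomes 2 and 11, and 1 each on chromosomes 8 and 9.

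The threshold values were as follows. The largest gap inside a chain was 4960 bp and the nearest distal region beyond a chain lay 5018 bp away. The member nearest to a start lay 517 bp from it, and the farthest promoter region inside a span, left out by the rule, lay 462 bp from its start. Signal here is the value the authors gave each peak, on a scale that is not stated, and tissue in bulk cannot tell more cells open at a site from a site more open in each cell. Regions in chains of 4 had median signals of 2.00 in replicate 1 and 0.945 in replicate 2, and regions in chains of 3, just outside the rule, had 2.65 and 1.03.

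By what lies in them the chains fell into 4 classes. A region of 13 chains with 69 regions overlapped a tRNA gene. Of the remaining chains, 16 with 71 regions stepped over an open promoter, 17 with 83 regions overlapped a protein-coding gene without doing so, and 32 with 143 regions lay between protein-coding genes. Each chain is named here for the protein-coding gene it overlaps or, where there is none, for the one with the nearest start, which does not say that the gene is its target. The map of the 12 largest chains shows the first class mixed with the others, and 5 of the 12 hold tRNA genes.

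**Figure D1:**
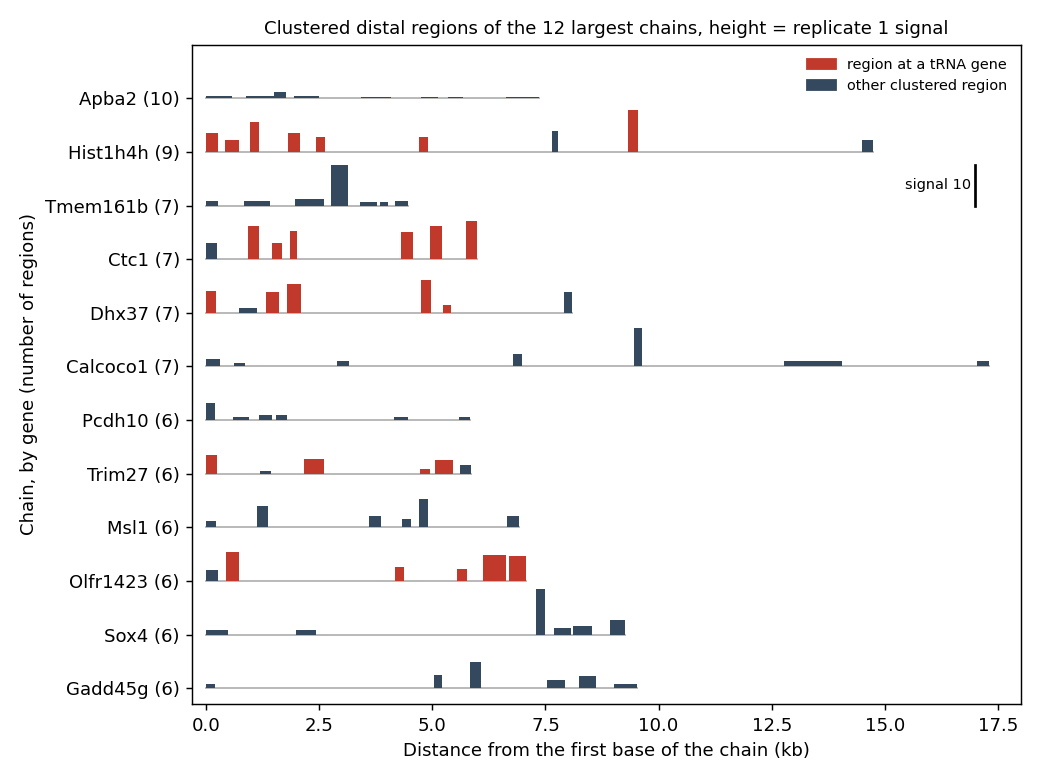
Position and width of each clustered region in the 12 chains with the most regions, with the distance from the first base of the chain in kb on the x axis. Bar height is the replicate 1 signal (scale bar, 10) and red bars overlap a tRNA gene; 7 of 9 regions of the Hist1h4h chain are red, and 9 of the 10 regions of the Apba2 chain have signals of at most 0.449.

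Open tRNA genes made up a larger share of clustered regions than of shorter chains or single regions. Of the clustered regions 56 (15.3%) overlapped a tRNA gene, against 100 (0.475%) of the other distal regions, and over all distal regions the share was 0.728%. It was 4.70% in chains of 3, 1.04% in chains of 2 and 0.178% among single regions, so the share was higher in longer chains. It depends on the peaks used. The share was 5.03% with the authors' longer peak lists and 37.0% with the stronger 50% of each list. It was 6.47% without replicate 1 and 2.90% without replicate 2. Other distal regions under these settings are not given beside it. Of the 386 autosomal tRNA genes in the RefSeq annotation, 58 overlapped a clustered region, 103 overlapped another distal region, and 179 overlapped no shared region. The 58 genes covered 19 of the 20 tRNA products annotated on autosomes, with 6 leucine genes and 5 each for glycine and lysine. Inside the spans of the chains stood 63 tRNA genes in all, of which 4 overlapped no shared region and 1 overlapped a promoter region.

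The largest tRNA chain, of 9 regions, lay at chr13:23517121-23531860 and overlapped Hist1h4h, a gene of histone H4 in the large histone gene cluster. Its signals ran from 2.93 to 10.4 in replicate 1 and from 0.840 to 2.23 in replicate 2. The strongest of its regions, at the arginine gene n-TRtcg1, had 10.4 and 2.23, and is the first sequence above. The chain at chr11:69035941-69041920, at Ctc1, which encodes a protein that caps telomeres, had 6 of its 7 regions at tRNA genes, and each of the 6 genes was read from the forward strand. Those 6 regions had signals from 4.04 to 9.56 in replicate 1 and from 1.39 to 3.37 in replicate 2. The chain at chr5:125404161-125412240, beside Dhx37, which encodes an RNA helicase of ribosome assembly, had 5 of 7 regions at tRNA genes. One of these, at the alanine gene n-TAtgc5, was weaker than the other tRNA regions of the chain, with 1.85 in replicate 1 and 0.690 in replicate 2. Its 4 other tRNA regions had signals from 5.10 to 8.17 in replicate 1 and from 1.44 to 2.15 in replicate 2. The Trim27 chain (chr13:21167521-21173380) had 4 of 6 and the Olfr1423 chain (chr19:12005452-12012520) 5 of 6 regions at tRNA genes, and in each of them 1 region held 2 tRNA genes.

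Clustered tRNA regions were strong, and were so to about the same degree as other distal regions at tRNA genes. Their median signals were 5.33 in replicate 1 and 1.83 in replicate 2, against 5.30 and 1.74 at tRNA genes of other distal regions. Of these 100 other regions, 34 stood in chains of 3, 36 in chains of 2 and 30 alone. Clustered regions not at a tRNA gene had 1.90 and 0.926. Signals at the 58 genes ran from 1.21 to 11.2 in replicate 1 and from 0.690 to 3.86 in replicate 2. Many tRNA genes have copies: 49 of the 58 had at least 1 other autosomal tRNA gene of identical sequence, against 227 of all 386, and 1 sequence was present 13 times. Every one of the 56 regions held stretches of 31 bases that occur more than once in the genome, with a median of 21.1% and a maximum of 36.9% of their 31-base stretches. How the authors treated reads that fit several places is not given in the sources used here, and its part in these signals was not tested.

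Footprints, short protected stretches inside open chromatin that the authors called in each library, lay mostly at 2 places along the tRNA genes. In replicate 1 the share of the 58 genes with a footprint peaked at 79.3%, 24 bp before the first base of the gene, and again at 96.6% at base 57 of the gene. In replicate 2 it peaked at 69.0%, also 24 bp before the gene, and at 67.2% at base 61. Between both places it was near 0, with 1.72% in replicate 1 and 0% in replicate 2 at base 25. The median gene was 73 bp long, and 43 of the 58 held the letters GTTCGANNC of the B box, starting at a median of base 53. A footprint overlapped these letters in 41 of the 43 genes in replicate 1 and in 33 in replicate 2. The 103 genes at other distal regions gave nearly the same places, with 96.1% at base 65 in replicate 1 and 73.8% at base 62 in replicate 2. Among the 179 genes without a shared region the highest share in the gene was 24.6% in replicate 1 and 6.70% in replicate 2. The methionine gene of the Trim27 chain printed above holds these letters from base 53 of its capitals.

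**Figure D2:**
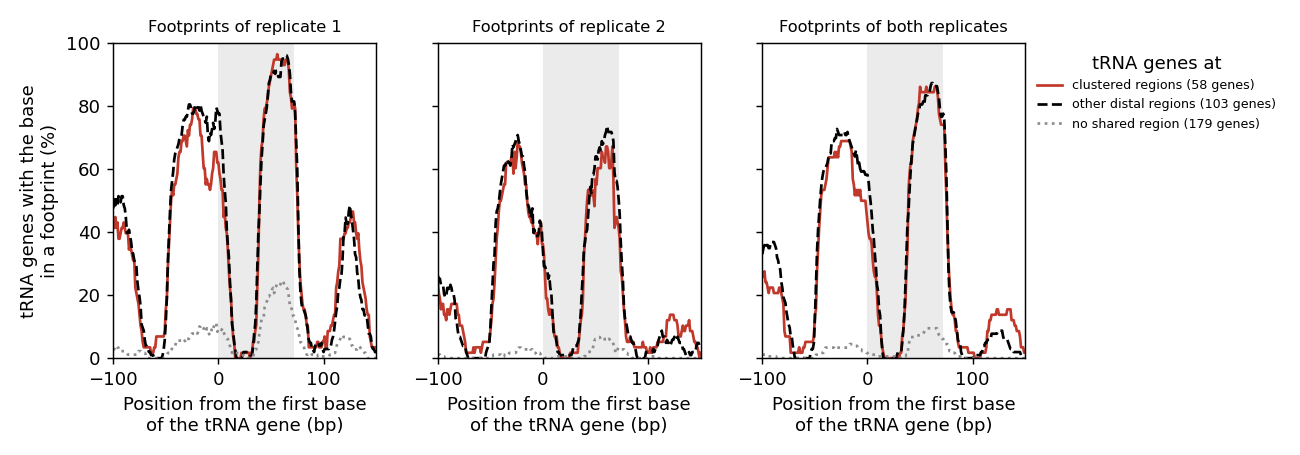
Share of tRNA genes (percent, y axis) whose base at each position from the gene's first base (bp, x axis) lies in a footprint of replicate 1, of replicate 2 or of both, with bases 1 to 73 of a typical gene shaded. Genes at clustered regions (58) and at other distal regions (103) have high shares before the start and late in the gene, while the 179 genes without a shared region reach at most 24.6%.

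The 16 chains around an open promoter had low signals and many CpG pairs. Their 71 regions had median signals of 1.37 in replicate 1 and 0.780 in replicate 2, against 1.99 and 0.855 for other distal regions. Their median GC content was 59.6%, against 51.0%, and their median CpG ratio, the number of CpG pairs over that expected from the C and G content, was 0.626, against 0.281. They were also wide, with a median of 289 bp against 200 bp. Sox4, a factor of immature neurons, had 6 regions at chr13:28950581-28959840 on either side of its open promoter. The strongest had signals of 11.4 and 2.62, and the other 5 lay between 1.04 and 3.53 in replicate 1 and between 0.653 and 1.58 in replicate 2. Gadd45g, a stress and activity gene, had 6 regions at chr13:51839725-51849242. Their signals ran from 1.00 to 6.46 in replicate 1 and from 0.690 to 1.28 in replicate 2, and the strongest in replicate 1 was the 2nd strongest in replicate 2. Pcdh10, a protocadherin of cell adhesion, had 6 regions at chr3:45375861-45381686, all but 1 of them between 0.816 and 1.37 in replicate 1. Egr3, an activity-induced zinc finger factor, had 4 regions around 3 promoter regions, with signals from 1.07 to 4.10 and from 0.465 to 1.98.

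The 17 chains that overlapped a gene outside open promoters were led by the largest chain of all, which was also among the weakest. Apba2, which encodes an adaptor protein that binds the amyloid precursor protein, held 10 intronic regions at chr7:64503481-64510840. One region, the last sequence above, had signals of 1.65 and 0.548. The other 9 had signals from 0.257 to 0.449 in replicate 1 and from 0.150 to 0.308 in replicate 2, below the medians of other distal regions in both libraries. The chain held 15 footprints in replicate 1 and 12 in replicate 2, of which 1 was shared, and none of its regions held a 31-base stretch that occurs elsewhere in the genome. In this chain 3 gaps were under 100 bp. Kdm6b, which encodes a histone demethylase, had 6 regions at chr11:69408458-69419200 with signals from 1.29 to 6.56 in replicate 1 and from 0.615 to 2.81 in replicate 2. Fbxo2, which encodes an F-box protein of ubiquitin ligases, had 5 regions at chr4:148164121-148171080, and 3 of them held the CTCF motif.

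The 32 chains between protein-coding genes held the most regions, 143, with median signals of 2.24 in replicate 1 and 0.998 in replicate 2. A chain of 7 regions at chr13:84345150-84349620 had its nearest protein-coding start, that of Tmem161b, 93879 bp away, and its nearest start of any protein-coding or lncRNA gene 70306 bp away. One region there, shown above, had signals of 10.2 and 3.65, and its 6 neighbours on both sides lay between 0.765 and 1.54 in replicate 1 and between 0.630 and 1.19 in replicate 2. The 7 regions near Calcoco1, a coiled-coil protein gene (chr15:102733248-102750549), formed the longest chain in bp. Its strongest region had signals of 9.60 and 2.56 and held the CTCF motif, and the other 6 lay between 0.831 and 3.09 in replicate 1 and between 0.585 and 1.07 in replicate 2. The 6 regions near Msl1, which encodes a scaffold of a histone acetylation complex (chr11:98782261-98789180), were more even, with 1.66 to 6.91 in replicate 1 and 0.743 to 2.79 in replicate 2. The strongest region was not the same in both libraries there: in replicate 1 it was the 5th, with 6.91 and 2.75, and in replicate 2 the 2nd, with 5.41 and 2.79. Near Fos, the immediate early gene, 4 regions lay at chr12:85485981-85497020, beginning 11070 bp from the nearest Fos start. In order along the chromosome their signals were 6.24, 1.99, 3.02 and 5.22 in replicate 1, and 2.57, 1.18, 1.07 and 0.990 in replicate 2. The 1st region was the strongest in both, and the 2nd and the 4th held the CTCF motif.

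As a whole the clustered regions had slightly higher median signals than the rest, and in replicate 1 not without their tRNA genes. The median signal in replicate 1 was 2.39, against 1.99 in other distal regions, and in replicate 2 it was 0.998, against 0.855. These levels move with the peaks chained. In replicate 1 the median was 0.728 without replicate 2, 1.40 with the longer lists and 4.05 with the stronger 50% of each list. In replicate 2 it was 0.690 without replicate 1, 0.735 with the longer lists and 1.40 with the stronger 50%. Medians of other distal regions under these settings are not given here. In the chains without a tRNA gene the medians were 1.87 and 0.923, so the order against other distal regions turned round in replicate 1 and stayed in replicate 2. By chain, 39 of the 78 had medians above those of other distal regions in both libraries and 24 had medians below in both. Within a chain the strongest region exceeded the weakest by a median of 4.98-fold in replicate 1 and 2.57-fold in replicate 2, and in 56 chains the strongest region was the same in both. Replicate 1 had the higher signal at 350 of 366 clustered regions and at 94.9% of other distal regions, and in 66 chains at every region. Across the 366 regions the Spearman correlation of the libraries' signals was 0.826, and across other distal regions 0.750, given as a description because neighbouring regions are not independent and the libraries share their peaks' selection.

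**Figure D3:**
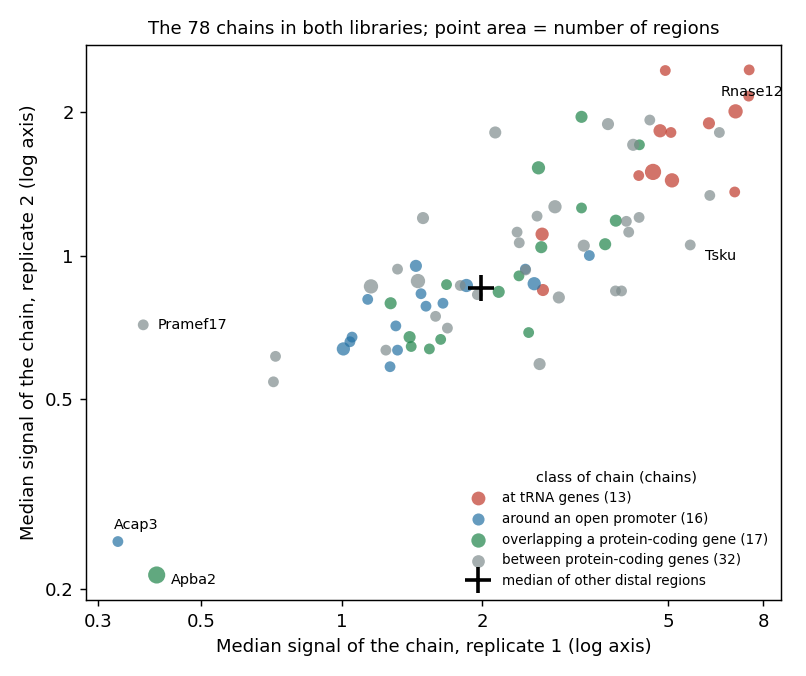
Median signal of each of the 78 chains in replicate 1 (x axis) and replicate 2 (y axis), both log axes with values as deposited, with point area by number of regions and colour by class. The chains at tRNA genes lie at the upper right except Trim27 and Abt1, the chains around open promoters mostly below and left of the median of other distal regions (cross, 1.99 and 0.855), and Apba2 and Acap3 at the lower left.

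**Figure D4:**
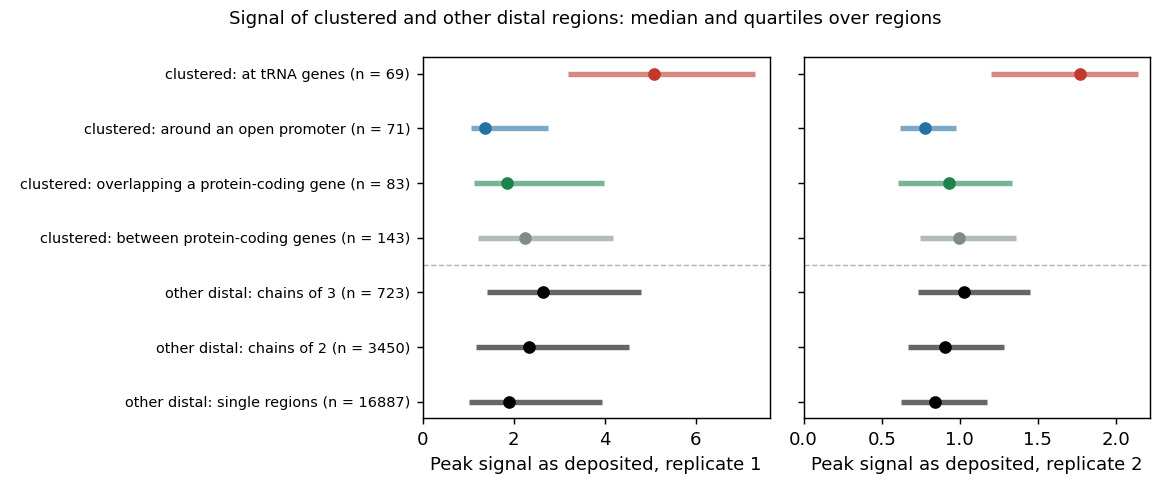
Median (points) and quartiles (bars) of the deposited peak signal over regions, in replicate 1 and replicate 2, for the 4 classes of clustered regions above the dashed line and for other distal regions by chain size below it. Clustered regions at tRNA gene chains have medians of 5.08 and 1.77, those around an open promoter 1.37 and 0.780, and single distal regions 1.90 and 0.840.

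Clustered regions were richer in CpG pairs and were less often intronic than other distal regions. The median CpG ratio was 0.521, against 0.281, and the median GC content 55.0%, against 51.0%. The CpG ratio stayed higher in chains without a tRNA gene, at 0.435, and it was 0.369 in chains of 3, 0.324 in chains of 2 and 0.270 in single regions. Clustered regions at tRNA genes had a median CpG ratio of 0.824 and a median GC content of 47.2%. Of the clustered regions 83 (22.7%) lay in introns, against 42.8% of other distal regions and 42.4% of all distal regions. This share was 5.07% in chains of the stronger 50% of peaks and 49.2% without replicate 2. Other distal regions were not set beside it under these settings. Exons held 46 (12.6%), against 9.06%, with 9.12% over all distal regions. The remaining 237 (64.8%) lay outside protein-coding and lncRNA genes, against 48.2%, with 48.5% over all distal regions. The nearest start of a protein-coding gene was a median of 8522 bp away, against 19932 bp. Regions of 500 bp or more were 27 of 366 (7.38%), against 1.80%, with 1.89% over all distal regions.

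Shared footprints were less frequent in clustered regions, though not at tRNA genes. A footprint found in both libraries lay in 259 of 366 clustered regions (70.8%), against 81.4% of other distal regions, and over all distal regions the share was 81.2%. In chains of the stronger 50% of peaks it was 95.7%, and without replicate 1 or 2 it was 44.4% or 26.9%. These settings change the regions compared, and shares of other distal regions under them are not given here. With the rule unchanged, the share was 94.6% in clustered regions at tRNA genes, against 93.0% in other distal regions at tRNA genes. Around open promoters it was 54.9%. It was 62.7% in chains overlapping genes and 74.1% between genes. In single libraries 90.2% of clustered regions held a footprint in replicate 1 and 86.3% in replicate 2, against 97.6% and 94.1%. Per 100 bp the clustered regions held 0.523 shared footprints and the other distal regions 0.601. The most shared footprints stood in tRNA chains, with 18 each in the Hist1h4h and Ctc1 chains and 16 in the Dhx37 chain, followed by 14 each in the Olfr1423, Rnase12 and Scaf8 chains.

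Of the 26 motifs searched on both strands in the 200 bp around each centre, some were scarcer and others more frequent in clustered regions. The CTCF motif, written as its consensus, stood in 37 of 366 regions (10.1%), against 17.6% of other distal regions and 17.4% of all distal regions. It was absent from the 71 regions around open promoters and stood in 16.8% of those between genes and 2.15% of promoter regions. The share was 6.56% without replicate 1 and 5.05% without replicate 2. It was 14.2% with gaps up to 10 kb, 14.4% in chains of 3 or more and 14.5% with the stronger 50% of each list. No share of other distal regions is given for these settings. Of the 37 CTCF matches 36 overlapped a shared footprint, and in other distal regions 95.7% did. Regions with the CTCF motif had median signals of 5.22 and 1.12, against 3.97 and 1.06 in other distal regions with it. Of the 78 chains 27 held such a region, and in 14 of these it was the strongest. In the chain near Plcg2, a signalling phospholipase gene, 3 of 4 regions held it, as did 3 of 5 in the Fbxo2 chain, and no chain had more.

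The motifs TGAGTCA and TGACTCA of AP-1, the dimers of Fos and Jun proteins, stood in 6 regions (1.64%), against 4.50%, with 4.45% over all distal regions. The AP-1 share was 3.19% without replicate 1, 3.12% without replicate 2 and 3.27% with gaps up to 10 kb. It was 2.66% in chains of 3 or more, 2.70% with the longer lists and 0.725% with the stronger 50%. Here too no share of other distal regions is given for these settings. CAGATG, an E-box of neurogenic bHLH factors such as the NeuroD proteins, stood in 53 (14.5%), against 24.8%, with 24.6% over all. TTGGCA of NFI factors, which can lie inside their full palindrome, stood in 33 (9.02%), against 17.6%, with 17.4% over all. Other motifs were more frequent. GGGCGGGG or GGGTGGGG of KLF and SP factors stood in 45 (12.3%), against 6.01%, with 6.11% over all. TGACGTCA, the full site of CREB and ATF factors, stood in 8 regions (2.19%), against 0.470%, with 0.499% over all, and in 3.08% of promoter regions. GCGTGGGCG or GCGGGGGCG of EGR factors stood in 8 (2.19%), against 0.636%, with 0.663% over all. In chains without a tRNA gene the shares were 2.02% for AP-1, 14.8% for CAGATG, 9.76% for TTGGCA, 14.1% for KLF and SP, 2.36% for TGACGTCA and 2.69% for EGR, on the same side of other distal regions in each case. The windows of clustered regions had a median GC content of 55.0% and those of other distal regions 51.0%, and the part of base composition in these shares was not tested. A match names letters in a window and no bound factor.

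Most of the other motifs differed little in share or stood in few regions. The E-box CAGCTG stood in 54 regions (14.8%), against 17.7%, with 17.6% over all distal regions. CACGTG, the E-box of the clock factors, stood in 16 (4.37%), against 3.89%, with 3.9% over all. GGAATG of TEAD factors stood in 30 (8.20%), against 11.1%, with 11.1% over all. TAATTA of homeodomain factors stood in 12 (3.28%), against 3.56%, with 3.55% over all. ACAATGG or ACAATAG of SOX factors stood in 7 (1.91%), against 3.78%, with 3.75% over all. TGTTTAC of forkhead factors also stood in 7 (1.91%), against 2.39%, with 2.38% over all. TAGGTCA of ROR and REV-ERB stood in 6 (1.64%), against 1.07%, with 1.08% over all. ATCAAAG of TCF and LEF stood in 4 (1.09%), against 2.28%, with 2.26% over all. The RFX motif stood in 5 regions (1.37%), with 1.51% over all, and the SRF motif in 3 (0.820%), with 0.896% over all. The glucocorticoid receptor motif stood in 3 as well, with 0.271% over all. In 2 regions each (0.546%) stood ATGCAAAT of POU factors, with 1.14% over all, AAAGGTCA of NR4A, with 0.56%, TTCCNGGAA of STAT factors, with 0.751%, CCGGAAGT of ETS factors, with 0.369%, and the NRF1 motif, with 0.345%. The NFI palindrome stood in 1 region (0.957% over all), and the MEF2 motif (0.471% over all) and the REST motif (0.042% over all) stood in none.

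**Figure D5:**
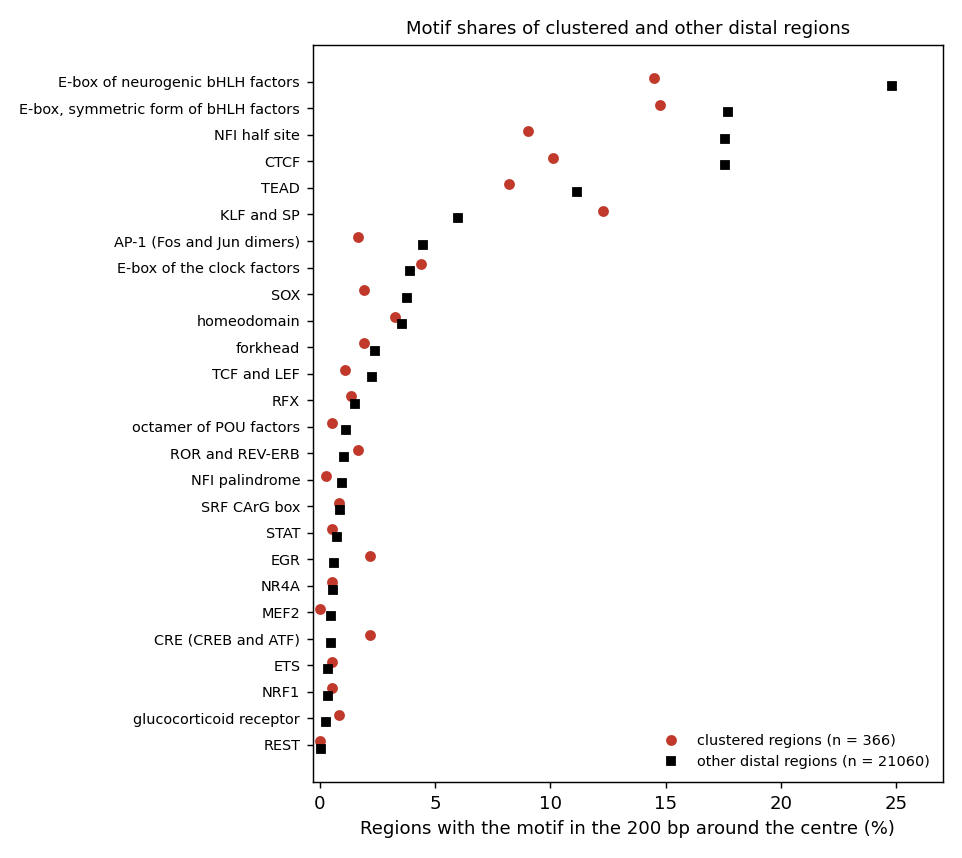
Share of regions (percent, x axis) that hold each of 26 motifs in the 200 bp around the centre, for the 366 clustered regions (red circles) and the 21060 other distal regions (black squares). The CTCF motif stands in 10.1% and 17.6%, the neurogenic E-box in 14.5% and 24.8%, and the KLF and SP motif in 12.3% and 6.01%.

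Few genes had a chain nearby. Of 20780 autosomal protein-coding genes 210 (1.01%) had a chain within 50 kb of the gene body and 40 (0.192%) overlapped one. In 18 gene lists, written with earlier results of these data known, 5 of 34 activity-regulated genes had one within 50 kb, namely Gadd45g, Fosl2, Egr3, Fos and Per1, and 3 of the 34 overlapped their chain. The count was 4 without regions at tRNA genes, 2 with the stronger 50% of peaks, and 1 with gaps up to 2.5 kb, in chains of 5 or more and over 2000 bp from every start. It was 8 without replicate 1, 15 without replicate 2, 8 with gaps up to 10 kb or the longer lists, and 10 in chains of 3 or more. The neurogenesis and immature neuron genes had 3 of 21, namely Sox4 and Sox11, transcription factors of new neurons, and Draxin, an axon guidance gene 33422 bp from the Fbxo2 chain. Their count was 3 with gaps up to 2.5 kb and 2 in chains of 5 or more or over 2000 bp from every start, above that of the activity-regulated genes under these settings. With the stronger 50% of peaks it was 1, against 2 activity-regulated genes. With peaks that overlap by 50% of the shorter it was 2, against 5. It was 3 with gaps up to 10 kb or in chains of 3 or more, and 5 with the longer lists. Without replicate 1 or 2 it was 4 or 6. In each of these wider settings the activity-regulated genes had more. Of 24 circadian clock genes 2 had one: Nr1d1, which encodes the repressor REV-ERB alpha, lay 6927 bp from the Msl1 chain, and Per1, a clock repressor gene, lay 8800 bp from a chain of 4 tRNA regions that overlaps Hes7. Sst, the neuropeptide gene of an interneuron class, was the 1 of 23 interneuron genes with a chain, of 4 regions at chr16:23898165-23900361, and the signals of these ran from 0.728 to 5.83 in replicate 1 and from 0.458 to 1.29 in replicate 2. Slc1a3, the glutamate transporter gene of astrocytes, was the 1 of 24 astrocyte genes, with 5 regions from 463 bp off the gene body. Spry2, an inhibitor of growth factor signalling, was the 1 of 24 feedback genes. With the stronger 50% of peaks the interneuron, astrocyte and feedback lists had 0 genes each. Without replicate 2 the astrocyte list had 3, and the interneuron and feedback lists 1 each. The clock list had 1 with gaps up to 2.5 kb and 5 without replicate 2. None of the 19 pan-neuronal, 20 excitatory neuron, 19 CA field, 19 granule cell, 21 oligodendrocyte, 15 precursor, 21 microglia, 22 vascular, 24 forebrain factor, 26 synaptic adhesion and 24 hepatocyte genes had a chain within 50 kb. These counts of 0 depend on the rule. Without replicate 2 there were 9 forebrain factor, 6 synaptic adhesion, 5 excitatory neuron and 3 pan-neuronal genes with a chain. That setting also gave 1 gene each of the granule cell, precursor, vascular and hepatocyte lists. Without replicate 1 there were 3 forebrain factor and 2 excitatory neuron genes, and 1 each of the CA field and microglia lists. The longer lists gave 3 forebrain factor, 2 synaptic adhesion, 2 excitatory neuron and 1 CA field genes. Chains of 3 or more gave 3 forebrain factor genes and 1 each of the excitatory neuron, CA field and granule cell lists. Gaps up to 10 kb gave 1 each of the excitatory neuron, CA field and oligodendrocyte lists.

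The stretches between clustered regions were not empty. The authors list bases at a false discovery rate of the cut rate up to 0.05, and outside their peaks 19.3% of the bases in the gaps between clustered regions were listed in replicate 1 and 21.1% in replicate 2. In gaps of chains of 2 or 3 the shares were 10.7% and 10.9%, and between neighbours 5 to 50 kb apart they were 1.63% and 1.48%. Shorter gaps lie nearer to peaks, and the part of this in the shares was not tested. Weaker regions found only in the longer peak lists of both libraries numbered 35 in these gaps, or 8.87 per 100 kb, against 3.26 per 100 kb in chains of 2 or 3 and 1.35 per 100 kb between the more distant neighbours.

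Some chains rest on repeated sequence. In 13 clustered regions (3.55%) over 50% of the 31-base stretches occur more than once in the genome, against 0.774% of other distal regions, with 0.821% over all distal regions. The chain near Pramef17, a gene of a large PRAME family (chr4:143985261-143988420), had a median of 90.3% such stretches, and all 4 of its regions were marked as repeats over their full length. Its 4 regions had the higher signal in replicate 2, with a median of 0.375 in replicate 1 and 0.716 in replicate 2. The chains near Gm2832 and Scaf8 had medians of 78.2% and 53.8%. Of the clustered regions 262 (71.6%) held no repeated stretch, against 92.1%, with 91.8% over all distal regions, and in the chains without a tRNA gene the share was 84.2%.

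The libraries gave many more chains on their own. Chained alone, the peaks of replicate 1 gave 563 chains with 3624 peaks and those of replicate 2 gave 214 chains with 1067. Of the chains of replicate 1, 112 (19.9%) overlapped a chain of replicate 2, and of those of replicate 2, 111 (51.9%) overlapped one of replicate 1. Each of the 78 shared chains overlapped a chain in both libraries. This follows largely from the rule, since each shared region holds a peak of both libraries, so it says little on their agreement. Enhancers in RefSeq's annotation overlapped 3 clustered regions (0.820%), in the chains near Bahcc1 and Psmg4, against 0.541% of other distal regions, with 0.546% over all distal regions.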

How the data were processed

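Chromatin accessibility was measured by DNase-seq in 2 libraries of 1 group. Per the deposited descriptions, each file was made from the alignments of its own library to mm10. For the aligner and the peak caller, no name or setting was found (not given in the sources used here). Peak lists deposited by the authors hold a signal value per peak, whose scaling is not stated. The footprint and cut-rate files deposited by the authors hold false discovery rates, the scale of a q-value and not of a p-value, at 0.01 for footprints and up to 0.05 for listed bases. Read depth is unknown, so no counting interval is given.

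From these files, shared regions, distances to GENCODE M21 gene starts and chains were computed with Python 3.11.15, numpy 2.4.6, pandas 2.3.3 and bedtools 2.31.1, and figures were drawn with matplotlib 3.10.9. The shorter of the 2 peak lists of each library was used, with 61466 peaks in replicate 1 and 50379 in replicate 2. Genes annotated as TEC were not counted as lncRNA genes. A shared footprint is the union of footprints of both libraries that overlap by at least 50% of the shorter. Repeated sequence was counted as 31-mers that occur more than once in the RefSeq genome, on either strand. tRNA genes and enhancers came from the RefSeq annotation of GRCm38.p6. Shared regions, chains, distances to starts, overlaps and the motif search were tested on simulated data. Footprint counts and 31-mer counts were not. Of 415 genes written into 18 lists 404 were matched. The result of 1 list is not reported here.

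The members, the gene lists and the motif list were chosen with earlier results of these data known. The overlap with tRNA genes, the B box search, the 31-mers and the footprint profile were added after the data were seen. Named chains are the 12 with the most regions, the 5 with the most shared footprints including ties, and for each list up to 3 genes with the largest chain within 50 kb. Fos, Plcg2, Acap3, Abt1, Pramef17, Gm2832, Bahcc1, Psmg4, Kdm6b, Fbxo2, Tank, Tchh and Mex3b were named after their values were seen. In all 13 alternatives were planned and 2 were added. No test across samples was possible with 1 group.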

Additional observations from a re-analysis of the deposited data

How the results depend on the processing

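Against 78 chains with 366 regions (1.71% of distal regions), a largest gap of 2.5 kb gave 51, 232 and 1.08%, and 10 kb gave 151, 703 and 3.28%. Chains of 3 or more gave 319, 1089 and 5.08%, and chains of 5 or more gave 30, 174 and 0.812%. Regions over 2000 bp from every start gave 49, 231 and 1.25%, the longer peak lists gave 294, 1371 and 3.38%, and the stronger 50% of each list gave 30, 138 and 1.35%. Without regions at tRNA genes the share of distal regions was 1.40%. Leaving out 1 library gave 214 to 563 chains, 1067 to 3624 regions and 3.35% to 9.47% of distal regions.

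The share at tRNA genes (15.3%) was 11.4% at 10 kb, 8.26% for chains of 3 or more, 21.3% for 5 or more, 19.5% over 2000 bp from starts, 5.03% with the longer lists, 37.0% in the stronger 50%, 2.90% to 6.47% with 1 library left out, and 0% by construction without tRNA regions. The intronic share (22.7%) was 27.6% at 10 kb, 15.5% for chains of 5 or more, 16.5% over 2000 bp from starts, 30.5% with the longer lists, 5.07% in the stronger 50%, 27.9% without tRNA regions, and 32.0% to 49.2% with 1 library left out. The share with a shared footprint (70.8%) was 78.0% at 10 kb, 76.2% for chains of 3 or more, 75.3% over 2000 bp from starts, 58.1% with the longer lists, 95.7% in the stronger 50%, and 26.9% to 44.4% with 1 library left out.

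The median signal in replicate 1 (2.39) was 1.97 at 2.5 kb, 1.40 with the longer lists, 4.05 in the stronger 50%, 1.87 without tRNA regions and 0.728 without replicate 2. In replicate 2 (0.998) it was 1.07 over 2000 bp from starts, 0.735 with the longer lists, 1.40 in the stronger 50%, 0.923 without tRNA regions and 0.690 without replicate 1. In the stronger 50% of each list a higher median is set by that choice, and the cause of the other moves was not tested. For all these settings only clustered regions are given, not other distal regions. Across the 8 summary results 62 values moved and 40 did not. No paired analysis was possible because only 1 group was sampled. Depth is unknown, and the rule's gap, chain size and peak list set how many regions are clustered.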

Other observations

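The X chromosome was outside the rule, which takes autosomes. Of its 477 distal shared regions 33 stood in chains of 4 or more. The largest chain, of 18 regions, lay at chrX:50590761-50623440 and had median signals of 3.64 in replicate 1 and 1.75 in replicate 2. A chain of 7 regions at chrX:50566401-50583980, next to it, had 5.22 and 1.78. The 4 regions at chrX:75728581-75734850 had 1.88 and 1.10, and the 4 at chrX:13345751-13347898 had 0.691 and 0.394.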
